A study of Drosophila melanogaster with 3 samples.

Results

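The proteasome subunit genes of Drosophila melanogaster were taken by name, as protein-coding genes of the Ensembl BDGP6 annotation whose symbol starts with Prosalpha, Prosbeta, Rpn or Rpt followed by a digit. This gave 48 genes of 13945 protein-coding genes on the 6 chromosome arms used. The rule reads gene names and no measured value. CG2678, a zinc finger protein also named kipferl, was mapped on chromatin by immunoprecipitation and sequencing (ChIP-seq) in 3 biological replicates of whole embryos of both sexes, 0 to 24 h old. All replicates came from 1 transgenic line carrying CG2678 with GFP at its C-terminus, and chromatin sheared to 200 to 800 bp was precipitated with an antibody against GFP. The promoter that drives the tagged copy is not given in the labels. No untagged line, other genotype, tissue or age was compared, and whole embryos mix all cell types, so binding in few cells cannot be told apart from weak binding in many.

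The proteasome is the protease that degrades ubiquitin-tagged proteins in the cytoplasm and nucleus. Its barrel-shaped core particle is built of rings of alpha subunits (Prosalpha genes), which gate the entry, and rings of beta subunits (Prosbeta genes), some of which carry the catalytic sites. The regulatory particle caps the barrel, with a base whose Rpt subunits are ATPases that unfold substrates and a lid of Rpn subunits that deubiquitinates them. Not all Rpn subunits are of the lid: Rpn2 and the ubiquitin receptor Rpn13 belong to the base. Flies also have paralogues of several subunits, named with a T or an R after the number, many of which are known from the testis.

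Peaks were read from 5 lists on dm6: a list of 30000 peaks per replicate, a pooled list of 30000 peaks and the 9459 pooled peaks that passed the authors' IDR threshold (irreproducible discovery rate, a measure of how well the ranks of peaks hold between replicates). The signal of a peak is the authors' own value and was used to rank peaks within a list, with rank 1 the strongest. A gene was counted as having a promoter summit when a peak's summit lay within 500 bp of any of its annotated transcription start sites (TSSs). At each subunit gene with a promoter summit in the IDR list, signal and rank were the same in the pooled list. A place in the IDR list thus does not show that the peak was found in every replicate. Read depth is not recorded in the lists, so no counting error can be given for a peak, and errors here are the spread over 3 replicates. The lists of any pair of replicates shared at most 2 identical intervals, so no replicate list was a copy of another. Replicate 1 stood apart: its list put a promoter summit at 43.9% of protein-coding genes, against 37% in replicate 2 and 33.5% in replicate 3, and 7.74% of genes had one in replicate 1 alone. The control library was not analysed here, and its part in the promoter peaks was not tested.

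The sequences at the summits are shown first, for the strongest IDR promoter summit of the alpha ring and Rpn families (Prosalpha4 and Rpn3), for the next Rpn gene (Rpn5), and for Rpn12, which was added after its values were seen because no other gene starts near its summit. No Rpt gene had an IDR promoter summit, and the sequence at the single beta ring summit is not shown. Each is 101 bp of the dm6 assembly, from the RefSeq copy, on the strand of the subunit gene, with the summit at base 51. Capitals mark any of 6 words searched on both strands: the TATA-box word TATAAA, TATCGATA bound by Dref, GGTCACAC bound by M1BP, the initiator TCAGTT, TGACNNNGC of the antioxidant response element, and the A and T word AAATAT. The windows lie at chr2L:19051710-19051810 (plus strand), chr3R:5789225-5789325 (plus), chrX:16275923-16276023 (plus) and chr3L:16582861-16582961 (plus), in the order printed.
Rpn3: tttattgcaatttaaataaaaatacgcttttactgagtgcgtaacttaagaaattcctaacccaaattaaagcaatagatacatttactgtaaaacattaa
Rpn5: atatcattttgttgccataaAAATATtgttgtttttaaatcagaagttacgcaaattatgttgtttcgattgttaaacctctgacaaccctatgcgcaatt
Prosalpha4: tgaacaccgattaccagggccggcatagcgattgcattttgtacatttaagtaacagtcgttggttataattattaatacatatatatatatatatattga
Rpn12: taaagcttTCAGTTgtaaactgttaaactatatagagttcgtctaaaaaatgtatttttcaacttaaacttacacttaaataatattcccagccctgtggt
The windows held 24.8%, 29.7%, 30.7% and 28.7% G and C in that order, and the 4 windows together held 2 of the words in capitals, AAATAT at Rpn5 and TCAGTT at Rpn12.

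An IDR promoter summit was found at 9 of the 48 subunit genes, or 18.8%, against 22.5% of all protein-coding genes, so the genes as a whole were not richer in summits than the genome. The 9 were not spread evenly over the complex. The regulatory particle genes Rpn2, Rpn3, Rpn5, Rpn7, Rpn11, Rpn12 and Rpn13 made up 7 of them, of 12 Rpn genes without a suffix (58.3%). The other 2 were Prosalpha4, of 7 alpha ring genes, and Prosbeta1, of 7 beta ring genes. None of the 6 Rpt genes and none of the 16 paralogues with a T or R suffix had one. No test was made between these groups, whose members are genes and not replicates, so the counts describe these lists.

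**Figure D1:**
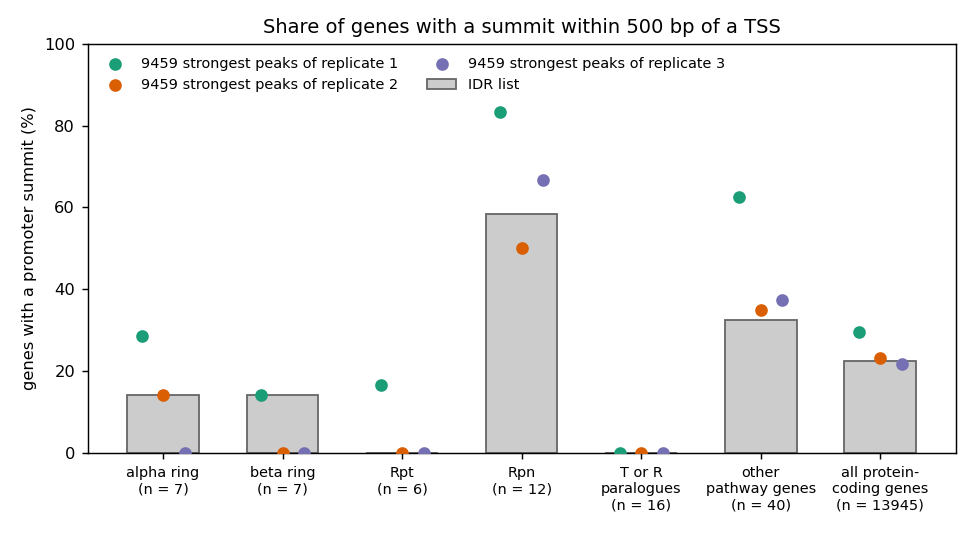
Share of genes with a summit within 500 bp of a TSS, in percent, for subunit genes without a suffix by family, the T or R paralogues, 40 other pathway genes and all protein-coding genes; bars give the IDR list and points the 9459 strongest peaks of each replicate. The Rpn bar stands at 58.3% and its points run from 50% to 83.3%, while the alpha ring, beta ring and Rpt points lie between 0 and 28.6%.

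The difference between Rpn genes and the rest was also seen in each replicate's own strongest peaks. The IDR list was derived from these same libraries, so this is not an independent check. The SDs below are the spread between libraries over the same genes. Among the 9459 strongest peaks of replicates 1, 2 and 3, promoter summits were found at 10, 6 and 8 of the 12 Rpn genes, a mean of 66.7% ± 16.7 (SD, n = 3). The other 20 subunit genes without a suffix had 4, 1 and 0, a mean of 8.33% ± 10.4 (SD, n = 3). The lowest Rpn share, 50% in replicate 2, was thus above the highest share of the other subunits, 20% in replicate 1. Over all protein-coding genes the same measure was 29.5% in replicate 1, 23.2% in replicate 2 and 21.7% in replicate 3. In the strongest peaks of every replicate the Rpn share was above that of all genes and the share of the other subunits below it. All peaks of each replicate list together put summits at 10, 8 and 8 of the Rpn genes and at 10, 5 and 0 of the others, against 43.9%, 37% and 33.5% of all protein-coding genes. In replicate 1 this was 50% of the other subunits, above the share of all genes, and in replicates 2 and 3 it was 25% and 0, below it. Among the strongest peaks of all 3 replicates, 6 of the 48 subunit genes had a promoter summit each time, all of them Rpn genes, against 16.8% of all protein-coding genes.

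Rpn3, a structural subunit of the lid, had the strongest promoter peak of the complex. Its peak (chr2L:19051511-19051962) had a signal of 1354 and rank 1600 in the IDR list, and ranks of 1812, 1668 and 1634 in replicates 1, 2 and 3. The ranks lay close together, and the summit was 30 bp upstream of the TSS. Rpn5, another structural subunit of the lid, followed with a signal of 1196 and rank 1879 (chr3R:5788997-5789569). Its ranks were 2296, 1904 and 1796 in the same order, and its peak was weaker than that of Rpn3 in each replicate.

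Rpn11 encodes the metalloprotease of the lid that removes ubiquitin chains from substrates. Its peak (chr2L:5059739-5060234) had a signal of 1005 and rank 2342, with ranks of 1944, 2909 and 2214 in replicates 1, 2 and 3. The peak was the third strongest of the complex in the IDR list, and no other gene had a TSS within 500 bp of its summit. Rpn13 encodes a ubiquitin receptor of the base, and its peak (chr2R:13960244-13960777) had a signal of 843 and rank 2861. In the replicates it ranked 2042, 3725 and 2792. Rpn2, the scaffold subunit of the base to which Rpn13 docks, had a weaker peak (chr3R:29153404-29153574), with a signal of 390 and rank 6209. It ranked 4367, 7707 and 7178 in the replicates, so the scaffold gene was below its receptor partner in each library.

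Rpn12 and Rpn7, structural subunits of the lid, completed the Rpn genes with a peak. The Rpn12 peak (chr3L:16582798-16583035) had a signal of 507 and rank 4846, and ranks of 4497, 6814 and 4607 in replicates 1, 2 and 3. The Rpn7 peak (chr3R:22461947-22462382) was the weakest of the 9, with a signal of 280 and rank 8240, and ranked 6517, 12806 and 7735. In replicate 2 it fell outside the 9459 strongest peaks.

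In the core particle, Prosalpha4 encodes a subunit of the gating ring and Prosbeta1 the subunit with caspase-like activity. The Prosalpha4 peak (chrX:16275841-16276131) had a signal of 577 and rank 4250, with ranks of 3806 and 6850 in replicates 1 and 2. The Prosbeta1 peak (chr2R:16014761-16014950) had a signal of 363 and rank 6622, with ranks of 5415 and 10287 in the same replicates. Neither gene had a promoter summit among the 30000 peaks of replicate 3, whereas all 7 Rpn genes had one in each replicate. With only IDR peaks whose summit was matched within 100 bp among the strongest peaks of all replicates, 6 of the 48 subunit genes remained. All of them were Rpn genes, and Prosalpha4, Prosbeta1 and Rpn7 were lost. Of all protein-coding genes, 15.8% had a promoter summit under this setting.

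**Figure D2:**
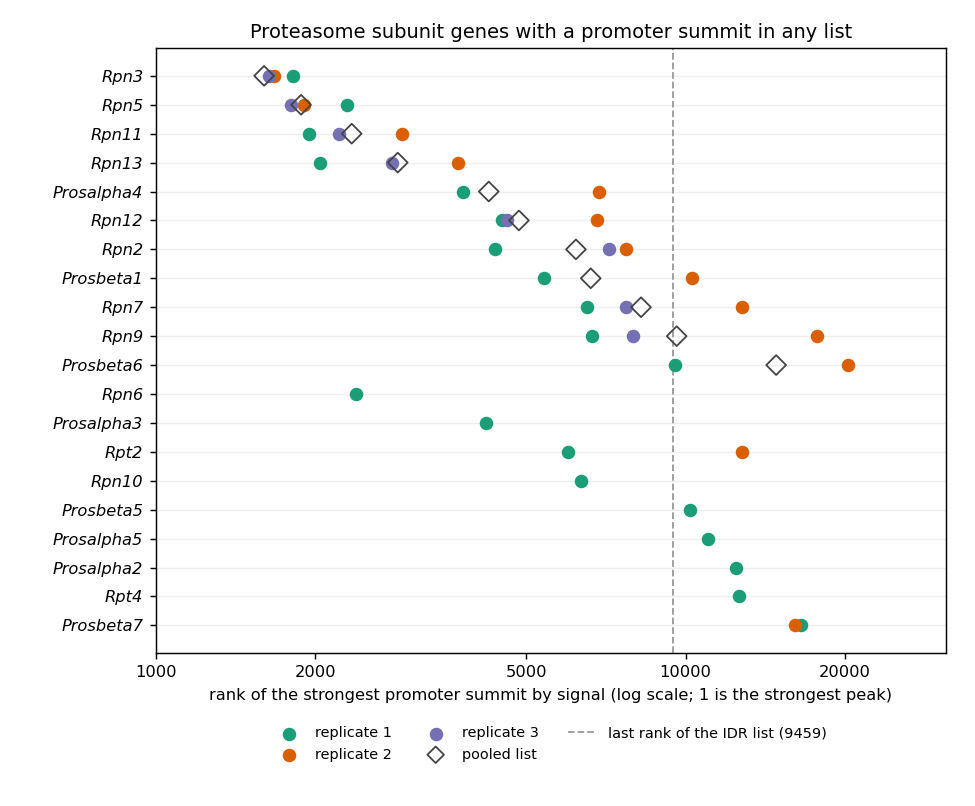
Rank of the strongest promoter summit by signal (log scale, rank 1 strongest) in each replicate and in the pooled list, for the 20 subunit genes with a promoter summit in any list; a missing point means no promoter summit in that list. The first 4 genes are Rpn genes ranked between 1600 and 3725 in all lists, and 7 genes at the lower part have a point for replicate 1 alone.

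The median rank of the 9 subunit peaks in the IDR list was 4250, against 2948 over the 3141 protein-coding genes with an IDR promoter summit, and their median signal was 577 against 818. The median changed with the libraries and with the genes that could be ranked in them. Taken as the mean rank in the lists of the other replicates, it was 3258 without replicate 1 and 2417 without replicate 2 (7 genes each). It was 5328 without replicate 3 (9 genes), the only set that held Prosalpha4 and Prosbeta1, so that median is not over the same genes. Those ranks are within lists of 30000 peaks and are not on the scale of the 2948. None of the 9 was among the 945 strongest IDR peaks, which held the promoter summits of 21% of those 3141 genes. Of the 9, 5 were among the 4730 strongest IDR peaks (55.6%, against 67.1%). The weakest just inside the IDR list was that of Rpn7, with a signal of 280, and the strongest just outside was that of Rpn9, a structural lid subunit gene, with a pooled signal of 232 and rank 9621. The Rpn9 summit, 190 bp downstream of the TSS, ranked 6649, 17716 and 7964 in replicates 1, 2 and 3.

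Beyond the 9, the pooled list added Rpn9 and Prosbeta6, so 11 of the 48 genes (22.9%) had a pooled promoter summit, against 34.1% of all protein-coding genes. Prosbeta6, a noncatalytic beta ring gene, ranked 14828 in the pooled list, 9547 in replicate 1 and 20238 in replicate 2, and had no promoter summit in replicate 3. The 9 IDR genes were 9 of these 11, and over all genes 66% of those with a pooled promoter summit had an IDR one. In the whole lists of replicates 1, 2 and 3, promoter summits were found at 20, 13 and 8 of the 48 genes, against 43.9%, 37% and 33.5% of all genes, or 28.5% ± 12.6 of the subunit genes (SD, n = 3). Only 8 subunit genes, all of them Rpn genes, had one in all 3 whole lists, against 25.8% of all protein-coding genes.

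Replicate 1 alone held promoter summits at 7 subunit genes: Prosalpha2, Prosalpha3, Prosalpha5, Prosbeta5, Rpn6, Rpn10 and Rpt4. This is 14.6% of the 48, against 7.74% of all protein-coding genes; no subunit gene had one in replicate 2 or 3 alone. Prosbeta5 encodes the subunit with chymotrypsin-like activity, Rpn10 a ubiquitin receptor, Rpn6 a lid subunit that clamps the lid to the core, and Rpt4 an ATPase. The strongest of these was at Rpn6, with rank 2388 in replicate 1, close to the 2296 of Rpn5 in that library, yet no summit near Rpn6 was in the other replicates or in the pooled list. Prosalpha3 and Rpn10 ranked 4202 and 6355, and Prosbeta5, Prosalpha5, Prosalpha2 and Rpt4 ranked 10209, 11024, 12460 and 12616. Of the 7, 3 (42.9%) were among the 9459 strongest peaks of replicate 1, against 54.2% of all genes with a summit in replicate 1 alone. Their median rank there was 10209, against 3332 for the 8 subunit genes with a summit in all replicates. Over all protein-coding genes the same 2 medians were 8437 and 4034, so the order was the same. Prosbeta7 and Rpt2 had summits in replicates 1 and 2, with Rpt2 ranked 6001 and 12794 and Prosbeta7 16545 and 16068. Of these only the Rpt2 summit in replicate 1 was among the 9459 strongest peaks of its list.

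The T or R paralogues were without a summit in every list. These 16 genes, among them Prosalpha3T, Prosalpha4T1, Prosalpha6T, Prosbeta2R1, Prosbeta5R2, Rpt3R and Rpt6R, had no promoter summit in the pooled list or in any replicate's 30000 peaks, nor had 12 of the 32 genes without a suffix. Over all protein-coding genes 49% had none in these lists. The 12 were Prosalpha1, Prosalpha6, Prosalpha7, Prosbeta2, Prosbeta3, Prosbeta4, Rpn1, Rpn8, Rpt1, Rpt3, Rpt5 and Rpt6. They include Prosbeta2, the gene of the trypsin-like subunit, Rpn8, the partner of Rpn11, and 4 of the 6 ATPase genes. A missing summit says that none was called within the 30000 peaks kept, not that the protein was absent.

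For the genes without an IDR promoter summit the nearest IDR summit lay between 1124 and 56531 bp from a TSS. By definition these genes had none within 500 bp, and the distance was not taken over other genes without one. The closest to the 500 bp limit from inside was Prosalpha4, with a summit 297 bp from its TSS, and the closest from outside was Prosbeta6, 1124 bp from its TSS. For the 39 genes without one, the median distance from a TSS to the nearest IDR summit was 11277 bp, up to 56531 bp at Prosbeta5R2. For the 16 paralogues, none of which had an IDR promoter summit, the median was 20396 bp. For all 32 genes without a suffix, which include the 9 with such a summit, it was 4415 bp, so these medians are not like for like. Over all protein-coding genes, with or without an IDR promoter summit, it was 5427 bp. No IDR summit lay in the body of any of the 39 genes.

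All 9 summits were upstream of the subunit gene's TSS, at a median of 111 bp and between 30 and 297 bp, coded as -111, -30 and -297. Over all protein-coding genes with an IDR promoter summit 83.3% were upstream, with a median position of -153 bp. In replicates 1, 2 and 3 the medians were -109, -105 and -108 bp. At Rpn12 the 3 replicate summits averaged -107 bp with an SD of 2.08 bp, and at Rpn3 -46 bp with an SD of 45.9 bp (n = 3 each). The Rpn12 summits coincided, while at Rpn3 replicate 1 lay 99 bp upstream and the other two within 21 bp.

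Most of these promoters belong to a pair of genes. At 7 of the 9 genes (77.8%) another gene's TSS lay within 500 bp of the summit, against 49.3% of the protein-coding genes with an IDR promoter summit. Each neighbour was a protein-coding gene on the opposite strand, so the pairs were head to head. The partners were l(2)37Bb at Rpn3, Hat1, a histone acetyltransferase gene, at Rpn5, CtsL1, a cathepsin protease gene, at Rpn13, kat80, a katanin subunit gene, at Prosalpha4, Slbp, whose product binds histone mRNA, at Rpn2, Rrp42, an RNA exosome subunit gene, at Prosbeta1, and AP-2mu, a clathrin adaptor gene, at Rpn7.

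In 2 of the pairs the summit was nearer to the partner. The Rpn5 summit was 218 bp from the TSS of Rpn5 and 109 bp from that of Hat1, inside the Hat1 gene but outside its annotated exons. The Prosalpha4 summit was 297 bp from its own TSS and 56 bp from that of kat80, inside kat80 but outside its exons. At Prosbeta1 the distances, 57 bp and 64 bp to Rrp42, were nearly equal. When a summit counted for the nearest gene alone, 7 subunit genes were left, 6 of them Rpn genes, and 17.8% of all protein-coding genes. To which gene of a pair a peak relates cannot be told apart from its position.

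**Figure D3:**
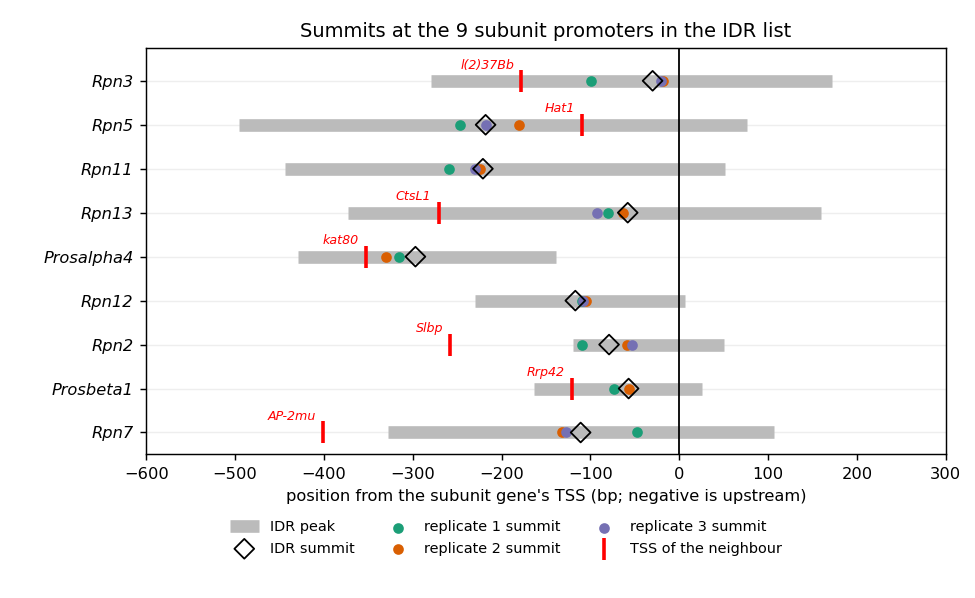
Positions in bp from the subunit gene's TSS (0, negative upstream) of the IDR peak (grey bar), its summit (diamond), the replicate summits (points) and the TSS of the neighbouring gene (red tick) at the 9 promoters, in order of rank. All diamonds lie upstream between -297 and -30 bp, and at 7 genes a red tick lies within 500 bp of the diamond.

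Head-to-head arrangement was common among the subunit genes, with or without a peak. Another gene started on the opposite strand up to 500 bp upstream of 18 of the 32 genes without a suffix, of 2 of the 16 paralogues, and of 28.4% of all protein-coding genes. Of the 20 head-to-head subunit genes 7 had an IDR promoter summit (35%, against 33.2% of head-to-head genes in the genome). Of the 28 others 2 had one (7.14%, against 18.3%), but 14 of the 28 were paralogues, none of which had one. Among the genes without a suffix alone, 7 of 18 head-to-head genes (38.9%) and 2 of 14 others (14.3%) had one. The core and ATPase genes Prosalpha1, Prosalpha6, Prosalpha7, Prosbeta2, Prosbeta3, Prosbeta4, Prosbeta5, Rpt2, Rpt3, Rpt4 and Rpt5 were head to head and had no IDR summit, whereas Rpn11 and Rpn12 were not and had one. The part of this arrangement in the difference between Rpn genes and the others was not tested.

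The summits lay in sequence rich in A and T. In the 101 bp around them the median GC content was 28.7%, from 21.8% at Rpn7 to 41.6% at Prosbeta1, against a median of 29.7% over all protein-coding genes with an IDR promoter summit. In windows 300 bp to either side it was 36.1% at Rpn5 and 58.4% at Prosbeta1, and each of the 9 summits was lower than its own flanks. The runs of A and T can be seen in the 4 windows printed above. Whole promoters, taken as 250 bases before to 50 after the TSS, had a median GC content of 33.5% in the 32 genes without a suffix, 32.7% in the paralogues and 38% in all genes. The 9 genes with an IDR summit had 32.7% and the 23 genes without a suffix that lacked one 34.7%, so the base composition of the promoters was near in both.

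**Figure D4:**
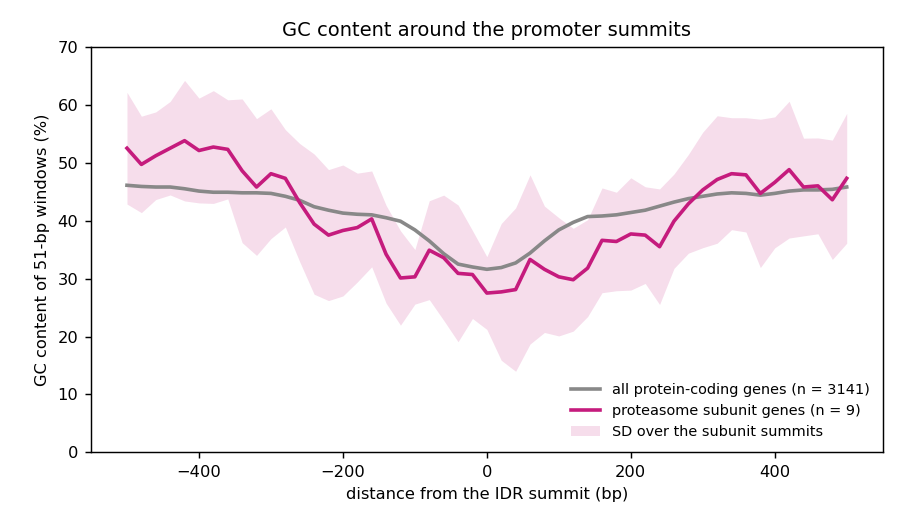
Mean GC content in percent of 51-bp windows by distance in bp from the IDR summit, for the 9 subunit genes (pink, with the SD over summits as a band) and the 3141 protein-coding genes with an IDR promoter summit (grey). Both curves are lowest at the summit, at 27.5% and 31.6%, and the band of the subunit genes overlaps the grey curve over most of the range.

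The word TATCGATA, bound by the promoter factor Dref, was more frequent in the promoters of the genes without a suffix than in all promoters. It was present in the 300 bp promoter of 12 of the 32 genes without a suffix, or 37.5%, in none of the 16 paralogues and in 9.36% of all protein-coding promoters. Those genes were Prosalpha3, Prosalpha5, Prosalpha6, Prosbeta1, Prosbeta2, Prosbeta6, Rpn3, Rpn7, Rpn9, Rpn12, Rpn13 and Rpt5, which include all families of subunits. None of the 9 IDR summits had the word within 50 bp. It was within 50 bp of only 2.1% of the IDR summits of protein-coding genes, so its absence from 9 summits is near the share of all genes. In the 5 promoters that had both, the summit lay 60 bp from the word at Prosbeta1, 96 bp at Rpn12, 118 bp at Rpn7, 155 bp at Rpn13 and 164 bp at Rpn3. In replicate 1, 9 of the 12 genes had a promoter summit (75%), against 61.1% of all protein-coding genes with the word. In replicates 2 and 3, 7 and 5 of the 12 had one (58.3% and 41.7%), against 47% and 33.3%. The replicate 1 summit lay on the word at Prosbeta6, 37 bp from it at Prosalpha3 and 43 bp at Prosbeta1, and between 55 bp (Rpn7) and 143 bp (Rpn9) at the other 6.

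The word is shown with 26 bases on either side, to set Rpn12, which had an IDR summit, beside Prosbeta6, with a weak pooled summit, and Prosalpha6 and Prosbeta2, which had no promoter summit in any list. Capitals mark the word, each sequence is on the strand of the gene, and they lie at chr3L:16582786-16582845 (plus strand), chr3L:16610429-16610488 (minus), chr2L:10221309-10221368 (plus) and chr3L:14999915-14999974 (plus), from the RefSeq copy of dm6.
Rpn12: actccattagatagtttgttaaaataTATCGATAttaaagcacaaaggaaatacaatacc
Prosbeta6: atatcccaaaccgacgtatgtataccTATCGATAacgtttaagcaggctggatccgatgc
Prosalpha6: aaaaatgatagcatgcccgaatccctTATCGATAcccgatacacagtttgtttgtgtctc
Prosbeta2: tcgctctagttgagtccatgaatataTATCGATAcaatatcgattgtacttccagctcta
The same word thus stood in promoters with and without a summit. Of the 12 subunit promoters with it 5 had an IDR summit (41.7%), and of the 20 genes without a suffix that lacked it 4 had one (20%). Over all protein-coding genes these shares were 28.9% and 21.9%.

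The other words were each found at no more than 3 of the 9 subunit summits. TATAAA was within 50 bp of 1, at Rpn11, against 26.6% of the IDR summits of protein-coding genes, and AAATAT of 2, at Rpn2 and Rpn5, against 40.2%. TCAGTT was at 1, Rpn12, against 6.11%, and GGTCACAC and TGACNNNGC were at none, against 1.11% and 1.75%. GAGG or GGGG, words of the G-rich kind described for kipferl in ovaries, was at 3, Rpn2, Rpn5 and Rpn13, against 27%. In the promoters, GGTCACAC was present at 5 of the 32 genes without a suffix, Prosalpha2, Prosalpha4, Prosbeta3, Rpn1 and Rpn7, and in 7.7% of all promoters. TGACNNNGC, the core of the element bound by the stress factor Cnc with its Maf partner, was also present at 5, Prosalpha2, Prosbeta3, Rpn1, Rpn7 and Rpt6, and in 8.63% of all promoters. TATAAA and AAATAT can overlap each other, and a word in a window is a match of letters and not a binding site.

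Genes that work with the proteasome had IDR promoter summits at 13 of 40 (32.5%), beside 22.5% of all protein-coding genes. The conjugating enzyme genes, which hand ubiquitin to substrates, had 5 of 8 (62.5%), among them ben, vih, Ubc6 and eff. The ben peak had a signal of 1592 and rank 1312, and ranked 1048, 1879 and 1017 in replicates 1, 2 and 3. It was thus stronger than that of Rpn3 in replicates 1 and 3 and weaker in replicate 2, where Rpn3 ranked 1668. The peaks of vih, Ubc6 and eff ranked 4049, 6039 and 7425 in the IDR list, and vih had no promoter summit in replicate 3. The ubiquitin and activating enzyme genes had 2 of 5, the polyubiquitin gene Ubi-p63E (signal 852, rank 2827) and RpL40, a ribosomal protein gene fused to ubiquitin (282, rank 8192).

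Of the 7 accessory and assembly genes, Pomp alone had one. Pomp, the chaperone that assembles the core particle, had a signal of 2029 and rank 903, with ranks of 1400, 751 and 931 in the replicates. Its peak was stronger than that of any subunit gene in each replicate. Of 8 genes of shuttle factors and of TER94, the ATPase that extracts ubiquitinated proteins, and its cofactors, Ufd1 alone had one (signal 289, rank 8041). In the list of replicate 1, however, 7 of the 8 had a promoter summit, against 43.9% of all protein-coding genes. In that replicate alone 5 of the 8 had one, against 7.74%. The COP9 signalosome, a complex whose subunits resemble those of the lid, had 2 of 8, alien (659, rank 3731) and CSN8 (343, rank 6963), a lower share than the 5 of 8 of the lid genes themselves.

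Among 4 genes that regulate proteasome gene expression, cnc and Keap1 had an IDR promoter summit. The cnc gene encodes the stress-responsive transcription factor that raises proteasome genes in flies, and its peak had a signal of 1785 and rank 1093, with ranks of 1176, 1027 and 1214 in the replicates. The summit was 343 bp downstream of a TSS. Keap1, the inhibitor of that factor, had a weak peak (276, rank 8358). The genes maf-S and Pngl had promoter summits in replicates 1 and 2 but none in the pooled list.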

How the data were processed

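ChIP-seq peaks of 3 replicates were read from 5 deposited narrowPeak lists on dm6. Per the deposited file descriptions, peaks were called on each replicate and on the 3 pooled, against a control library, and the IDR list was derived from these. Aligner and peak caller: not given in the sources used here. The deposited signal of a peak (column 7) is the authors' value and was used only for ranks within a list. The −log10 q-value of column 9, as deposited, reached one shared ceiling in each list and was left out. The summit is column 2 plus the deposited offset of column 10, an other kind of value, written 1-based.

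Genes and TSSs were those of Ensembl release 115 (BDGP 6.54), without transposable elements, on arms 2L, 2R, 3L, 3R, 4 and X. All peaks and genes lay within the lengths of the RefSeq copy of the assembly. Equal signals shared a rank. The strongest peaks of a replicate were its first 9459, and summits within 100 bp matched. Scoring was done in Python 3.11.15 with numpy 2.4.6 and checked on simulated data. With 1 group there was no contrast between samples and no test. The subunit genes, lists and words were chosen with earlier results of these data known. Every subunit gene is accounted for; other genes are named where a TSS lay within 500 bp of a subunit gene's IDR summit, or from the pathway lists. All 40 pathway symbols matched, 1 of them (Ufd1) through an older symbol. The values of 1 pathway gene are not reported here, though it is in the counts. Further settings tried are the width of the window, the TSSs used, the strength and matching of peaks, and each replicate left out. Read depth is unknown.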

Additional observations from a re-analysis of the deposited data

How the results depend on the processing

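Of 93 recomputed values, 74 moved by no more than 1.5 times (counts) or 1 SD over replicates (other values), a wide margin for the median rank and the mean share. The IDR counts of all subunit genes and of those without a suffix were the same numbers under every setting, and those of the paralogues stayed at 0. These are therefore not separate results in the tally. The 9 subunit genes were the same 9 with windows of 250 or 1000 bp, the 5'-most TSS alone, the strongest summit per interval or any base of the peak. Among the 4730 strongest IDR peaks, a shorter list, 5 remained, all without a suffix (4 Rpn), with 15.1% of all protein-coding genes and 7 of the 40 pathway genes. With peaks matched in all replicates the pathway count was 7 and the share of all genes 15.8%. The share of all genes was 17.3% within 250 bp and 17.8% for the nearest gene alone. Using all peaks of each replicate raised the mean subunit share from 20.1% to 28.5%, and the 4730 strongest of each lowered it to 12.5%. The median distance was -96 bp within 250 bp, and the median GC content 30.8% with 100 bp on each side.

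Leaving out a replicate, as IDR peaks matched in both others, gave 6 to 7 subunit genes, 16.8% to 18.3% of all genes, 7 to 10 pathway genes, median distances of -117 to -98 bp, 4 to 5 promoters shared with another gene and median GC contents of 25.7% to 28.7%. The median rank, from the other replicates' own lists, ran from 2417 without replicate 2 (7 genes) to 5328 without replicate 3 (9 genes). The gene sets differ, so this range is not that of the libraries alone. The mean share of subunit genes ran from 15.6% to 22.9%. Without replicate 1 the shared promoters numbered 4, and without replicate 3 the pathway genes numbered 7. Prosbeta1 was lost in each case, Prosalpha4 without replicate 1 or 2, and Rpn7 without replicate 1 or 3. The paralogues had 0 under every setting. The IDR threshold itself could not be recomputed without a replicate, since the reads were not used here. Depth is unknown, so weak peaks near the end of the lists limit what an absent summit shows. No paired analysis was possible because there was 1 group.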
